A study of Mus musculus with 6 samples.

Results

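The phagocyte NADPH oxidase, also called NOX2, is the enzyme complex with which macrophages and neutrophils make superoxide at the membrane of a phagosome. Its genes were compared between p16High and p16Low peritoneal macrophages of 12-month-old mice. The 7 genes, Cybb, Cyba, Ncf1, Ncf4, Rac1, Rac2 and Hvcn1, were found by their symbols in a deposited table of 54532 genes, 1 row each, and cover the complex, its Rac GTPases and its proton channel. All 7 passed the filter on low values.

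The p16High libraries held F4/80+ peritoneal cells sorted for EGFP and the p16Low libraries held F4/80+ peritoneal cells sorted for tdTomato, with 3 libraries of each. Both fractions came from C57BL/6 mice carrying p16-Cre and Rosa26-mtmg, kept for 12 months with no other treatment named in the labels. In the mTmG reporter, Cre replaces membrane tdTomato with EGFP for good, so EGFP marks cells in which the p16 driver has been active at some time rather than cells that carry p16 when sorted. Separate animals are not named for the 3 libraries of each fraction, so the p-values measure only how far these libraries spread, which may be technical. Means are given ± SD over the 3 libraries of a fraction (n = 3).

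In a resting phagocyte the oxidase is in pieces. A membrane heterodimer of gp91phox (Cybb) and p22phox (Cyba) waits for cytosolic subunits, among them p47phox (Ncf1) and p40phox (Ncf4), and for a GTP-bound Rac, and only the assembled complex passes electrons from NADPH to oxygen. The voltage-gated proton channel Hvcn1 lets out the protons left behind. Loss of a subunit in humans causes chronic granulomatous disease, in which phagocytes ingest microbes but fail to kill many of them.

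Library totals read back from the FPKM values ran from 16.52 to 19.57 M reads in p16High and from 18.46 to 20.87 M in p16Low. FPKM is the number of fragments per kilobase of transcript and per 1 M reads. Cdkn2a, the gene of p16Ink4a, had 7.01, 7.84 and 5.48 FPKM in p16High against 0.620, 0.933 and 1.71 FPKM in p16Low (a log2 fold change of 1.92, limma adjusted p = 0.0092). Macrophage genes were abundant in both, among them the F4/80 gene Adgre1 (2591 ± 163 FPKM in p16High cells, against 1978 ± 644 in p16Low cells). Of 10 such genes, Vsig4 was called, higher in p16High (log2 fold change 0.77, limma adjusted p = 0.0255), beside 0.890% of all tested genes. Without p16Low replicate 2, Vsig4 and Cd68 were called higher (log2 fold changes 0.69 and 0.27), beside 2.76% of all tested genes. One library stood apart: p16Low replicate 2 correlated with the other 5 at 0.956 to 0.967 on the scale of log2(FPKM + 1), while those 5 correlated with each other at 0.984 to 0.991. The tests of the 7 genes, the medians of the related lists and the calls among marker genes are given with and without it.

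Promoter sequence was on hand for 3 of the 7 genes, from RefSeq on GRCm38.p6, and is shown because these genes include both subunits of the membrane heterodimer and the organizer of the cytosolic ones. Each line runs 5′ to 3′ on the minus strand, from 100 bases before the RefSeq start to 30 bases from the start on. Capitals mark matches, on either strand, to GAGGAA (the core of sites for PU.1, the ETS factor of myeloid cells), CCAAT and GGGCGG (the GC box). Positions count the start as base 1 and the base before it as -1.
Cybb, chrX:9469295-9469424: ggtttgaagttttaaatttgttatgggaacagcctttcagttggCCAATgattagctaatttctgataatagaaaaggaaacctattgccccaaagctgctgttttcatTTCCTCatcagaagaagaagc
Cyba, chr8:122432911-122433040: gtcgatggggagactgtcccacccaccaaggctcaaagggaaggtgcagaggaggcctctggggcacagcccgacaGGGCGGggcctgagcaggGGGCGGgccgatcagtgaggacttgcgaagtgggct
Ncf1, chr5:134229596-134229725: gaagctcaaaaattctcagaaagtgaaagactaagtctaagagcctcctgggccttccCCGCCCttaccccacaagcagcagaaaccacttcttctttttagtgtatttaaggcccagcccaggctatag

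Of these windows, extended to the full 300 bases on file, GAGGAA was found in that of Cybb alone, on the opposite strand from base 10. CCAAT was found at -56 of Cybb, and GGGCGG at -24 and -6 of Cyba and, on the opposite strand, at -42 of Ncf1. Among 32851 windows of that length, 28.3% held GAGGAA, 37.4% CCAAT and 35.7% GGGCGG, and TATAAA, present in 13.6%, was found in none of the 3. None of the matches shown overlapped, and they are matches of letters only. The RefSeq start of Cybb, at 9469324, lies inside the span that the table gives the gene, 9435252 to 9487771.

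None of the 7 oxidase genes passed the test between p16High and p16Low. The limma test, which fits all 10895 tested genes together on log2(FPKM + 1), called 0 of 7 at a Benjamini-Hochberg adjusted p of 0.05, against 97 of all tested genes, which is 0.890% (0.174% higher and 0.716% lower in p16High). Before adjustment, 0 of the 7 had p under 0.05, against 787 of all tested genes (7.22%), and limma-voom, run on reads worked back from the FPKM, also called 0. The 2 fractions overlapped at all 7 genes, while 15.9% of all tested genes had no overlap. Log2 fold changes, p16High minus p16Low, ran from -0.19 for Cyba to 0.40 for Hvcn1, with a median of 0.12 beside 0.05 over all tested genes, and 6 of the 7 were positive. Between 228 (Hvcn1) and 54356 (Cyba) reads per library lay behind the values. In bulk RNA, fewer cells of a type and less RNA per cell cannot be told apart.

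**Figure D1:**
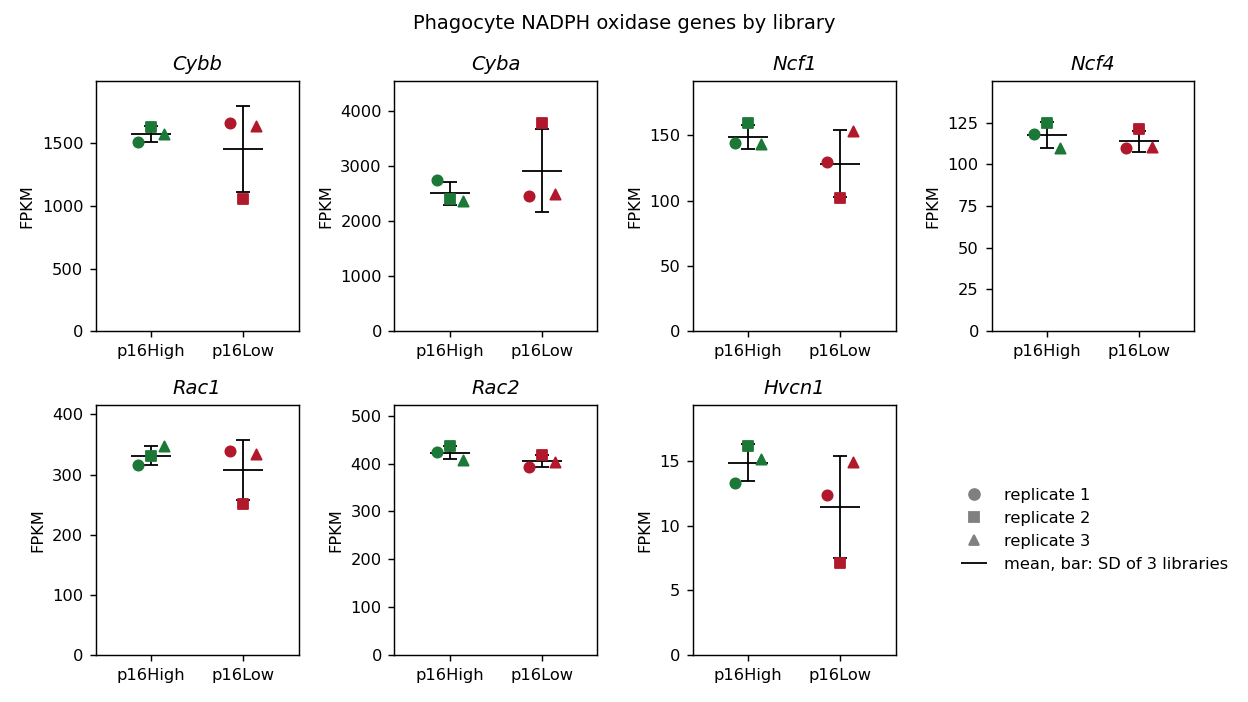
FPKM of each oxidase gene (y axis, from 0) in the 3 p16High and 3 p16Low libraries, with the replicate number as symbol, the mean as a line and the SD as a bar. The fractions overlap at every gene, and p16Low replicate 2 (red square) is the highest library for Cyba and the lowest for Cybb, Ncf1, Rac1 and Hvcn1.

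Cybb encodes gp91phox, the catalytic subunit that carries the flavin and the haems (ENSMUSG00000015340, chromosome X, minus strand; coordinates match GRCm38). It had 1513, 1634 and 1578 FPKM in p16High replicates 1, 2 and 3, against 1665, 1056 and 1636 FPKM in p16Low replicates 1, 2 and 3. Between 38699 and 47488 reads lay behind the p16High values and between 32733 and 48942 behind the p16Low values. The 3 p16High libraries lay inside the range of p16Low, whose replicate 2 was the lowest of the 6. The log2 fold change was 0.15 (SE 0.180, 95% interval -0.26 to 0.56, limma adjusted p = 0.818).

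Cyba encodes p22phox, the partner without which gp91phox is unstable (ENSMUSG00000006519, chromosome 8, 122424776 to 122432930, minus strand). It was the most abundant of the 7, with 2740.2, 2399.6 and 2367 FPKM in p16High against 2463.5, 3785 and 2494 FPKM in p16Low. Here p16Low replicate 2 was the highest of the 6, and the other 2 p16Low libraries lay within the p16High range. It was the 1 member with a negative log2 fold change, -0.19 (SE 0.179, 95% interval -0.60 to 0.21, limma adjusted p = 0.780).

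Within each library the ratio of Cybb to Cyba FPKM, which does not depend on how libraries are scaled, was 0.552, 0.681 and 0.667 in p16High against 0.676, 0.279 and 0.656 in p16Low. The ratio of p16Low replicate 2 stood below the other 5, which lay close together. The log2 difference of 0.34 gave p = 0.6 in an exact two-sided permutation test, where 3 against 3 libraries cannot go below 0.1.

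Ncf1 encodes p47phox, the organizer that is phosphorylated on activation and brings the cytosolic subunits to the membrane (ENSMUSG00000015950, chromosome 5, 134220053 to 134229625, minus strand). Its values were 144.1, 159.7 and 143.3 FPKM in p16High against 129.8, 101.8 and 153.7 FPKM in p16Low. Only p16Low replicate 3 reached the p16High range. The log2 fold change was 0.23 (SE 0.163, 95% interval -0.14 to 0.60, limma adjusted p = 0.755). Exons of Ncf1 share 408 bases with Gtf2ird2 on the other strand, a gene with 1.77, 2.29 and 1.23 FPKM in p16High against 2.16, 2.48 and 1.88 FPKM in p16Low.

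Ncf4 encodes p40phox, whose PX domain binds the phosphoinositide of early phagosomes (ENSMUSG00000071715, chromosome 15, 78244801 to 78262580, plus strand). It had 117.9, 124.9 and 109.8 FPKM in p16High against 109.8, 121.0 and 110.2 FPKM in p16Low. Replicates 2 and 3 of p16Low lay within the p16High range, and replicate 1 lay level with its lower end. Its log2 fold change of 0.05 was the smallest of the 7 (SE 0.121, 95% interval -0.23 to 0.32, limma adjusted p = 0.914). The ratio of Ncf1 to Ncf4 was 1.22, 1.28 and 1.30 in p16High against 1.18, 0.842 and 1.39 in p16Low (log2 difference 0.19, exact two-sided permutation p = 0.6).

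Rac2 is the Rac GTPase of blood cells, and Rac1 the one found in nearly all tissues; either can switch the oxidase on. Rac2 (ENSMUSG00000033220, chromosome 15, 78559167 to 78572783, minus strand) had 424.6, 435.8 and 408.0 FPKM in p16High against 392.5, 418.0 and 403.3 FPKM in p16Low. It had the tightest values of the 7, with an SD of 3.31% of the mean in p16High and 3.17% in p16Low, and p16Low replicate 2 was not an extreme among them. The log2 fold change was 0.06 (SE 0.109, 95% interval -0.18 to 0.31, limma adjusted p = 0.866).

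Rac1 (ENSMUSG00000001847, chromosome 5, 143503634 to 143528036, minus strand) had 315.8, 331.1 and 346.8 FPKM in p16High against 339.0, 250.5 and 334.0 FPKM in p16Low. The p16Low replicates 1 and 3 lay among the p16High values and replicate 2 lay below all of them (log2 fold change 0.12, SE 0.145, 95% interval -0.21 to 0.45, limma adjusted p = 0.818). Rac1 runs into Daglb, a gene on the other strand, over 2309 exonic bases, and 50.3% of the 50-base words of its transcripts also occur in those of Daglb. Since the sources used here do not state whether reads were counted by strand, reads in the overlap may have been assigned or dropped, and the level of Rac1 is uncertain. Daglb averaged 21.5 ± 2.49 FPKM in p16High cells, against 16.4 ± 6.35 in p16Low cells. Rac1 and Rac2 shared none of these words with each other.

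Rac2 was above Rac1 in each of the 6 libraries, by 1.34, 1.32 and 1.18 times in p16High against 1.16, 1.67 and 1.21 times in p16Low. The ratio did not separate the fractions (log2 difference -0.05, exact two-sided permutation p = 0.9). Adjusted over the 3 ratios tested, p was 0.9 for each.

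Hvcn1 encodes the proton channel that keeps the oxidase running by offsetting the charge it moves (ENSMUSG00000064267, chromosome 5, 122206804 to 122242297, plus strand). It was the lowest of the 7, with 13.3, 16.1 and 15.1 FPKM in p16High against 12.3, 7.11 and 14.9 FPKM in p16Low. The reads behind these values were 388, 485 and 384 in p16High against 350, 228 and 461 in p16Low. The p16Low replicates 1 and 2 lay below every p16High library, and replicate 3 lay among them. Hvcn1 had the largest log2 fold change of the 7, 0.40, and the widest interval (SE 0.247, 95% interval -0.16 to 0.96, limma adjusted p = 0.748). That interval runs from 0.895-fold to 1.95-fold. Exons of Hvcn1 share 1574 bases with Tctn1 on the other strand, so its level is uncertain in the same way; Tctn1 had 4.05, 5.35 and 3.05 FPKM in p16High against 4.06, 3.08 and 4.72 FPKM in p16Low.

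By level the genes ran Cyba, Cybb, Rac2, Rac1, Ncf1, Ncf4 and Hvcn1 in p16High and in p16Low. Ncf1 and Ncf4 were the 1 pair of neighbours whose values overlapped, in p16Low only. Cyba ranked 30 and Cybb 62 among the 10895 tested genes by mean FPKM over the 6 libraries, whereas Hvcn1 ranked 5068. Together the 7 genes took 0.558% ± 0.00825 of all reads in p16High, against 0.557% ± 0.0110 in p16Low.

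Cybc1, which is not among the 7, encodes the chaperone that the heterodimer needs in the endoplasmic reticulum. It had 108.7, 102.5 and 107.1 FPKM in p16High against 93.4, 74.9 and 106.7 FPKM in p16Low (a log2 fold change of 0.22, SE 0.151, limma adjusted p = 0.751). Here too p16Low replicate 2 was the lowest library, and without it the log2 fold change was 0.09.

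**Figure D2:**
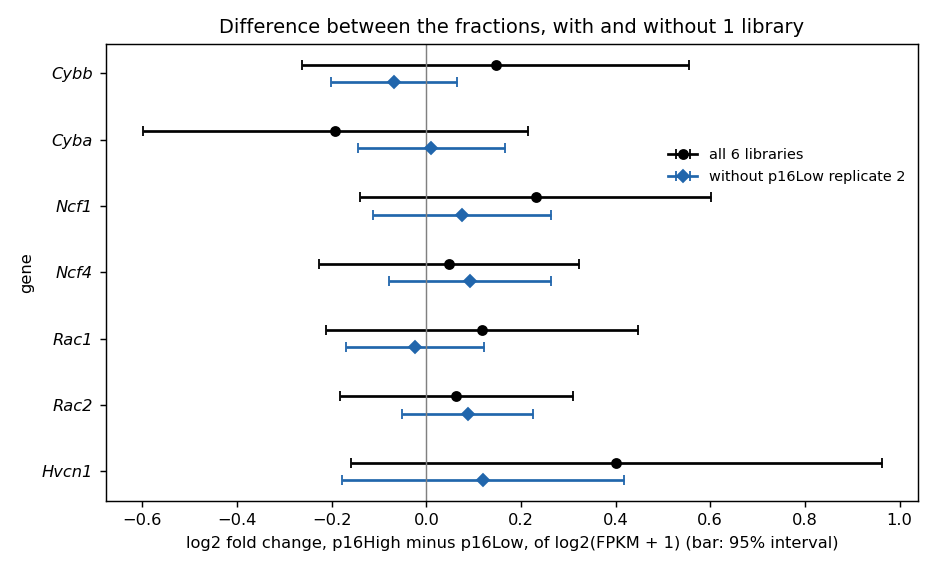
Log2 fold change, p16High minus p16Low, of the 7 oxidase genes on the scale of log2(FPKM + 1) (x axis), with 95% intervals from limma, for all 6 libraries (black circles) and without p16Low replicate 2 (blue diamonds). All intervals include 0, and the blue ones, none reaching below -0.20 or above 0.42, are narrower.

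The intervals were narrower without p16Low replicate 2. In that fit 2 p16Low libraries were set against 3 and the SE of Cybb was 0.0620, against 0.180 with all 6. Its log2 fold change was then -0.07, that of Cyba 0.01, that of Rac1 -0.02, that of Ncf1 0.08 and that of Hvcn1 0.12, so the estimates of Cybb, Cyba and Rac1 had the opposite sign. The 95% intervals of the 7 then lay between 0.869-fold and 1.34-fold. Limma still called 0 of the 7 (smallest adjusted p = 0.648, for Rac2), while 301 of all tested genes passed, or 2.76%.

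The genes did not deviate in 1 direction in p16Low replicate 2. Set against the mean of the other 2 p16Low libraries on the log2 scale, Cyba stood 0.61 higher, Ncf4 0.14 higher and Rac2 0.07 higher. In the same library Cybb was at -0.64, Hvcn1 at -0.84, Ncf1 at -0.47 and Rac1 at -0.42. The 3 genes above were the 3 with the shortest transcripts, 688 to 1250 bases as used in the FPKM, and the 4 below the 4 longest, 1485 to 1853 bases. The order of deviations did not follow length within the 4 longer genes.

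Over all tested genes the deviations of that library also fell with length. The genes were split by transcript length into 5 bins of near equal size. In the shortest bin (38 to 960 bases) the median deviation of p16Low replicate 2 was 0.34, and in the next bins it was -0.08, -0.34, -0.40 and -0.39. The 3 p16High libraries had medians between -0.07 and 0.07 in every bin. The Spearman correlation between deviation and length across the 10895 genes was -0.43 in p16Low replicate 2, given as a description, since genes of 1 library share its preparation; it was 0.32 and 0.37 in p16Low replicates 1 and 3, whose deviations are taken partly from replicate 2, and lay between -0.17 and 0.14 in p16High. The part of length in the values of these 7 genes was not tested beyond 1 fit with each library's length trend removed. In that fit the log2 fold changes of Cyba and Cybb were -0.05 and 0.07, and 0 of the 7 were called. The deviations of p16Low replicate 2 were then 0.26 for Cyba, -0.09 for Ncf4, 0.23 for Rac2, -0.36 for Cybb, -0.54 for Hvcn1, -0.11 for Ncf1 and -0.04 for Rac1. They were closer to 0 for 6 of the 7 and farther for Rac2. Mitochondrial genes took 1.08% of the reads of p16Low replicate 2, while the other 5 libraries lay between 0.545% and 0.684%.

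**Figure D3:**
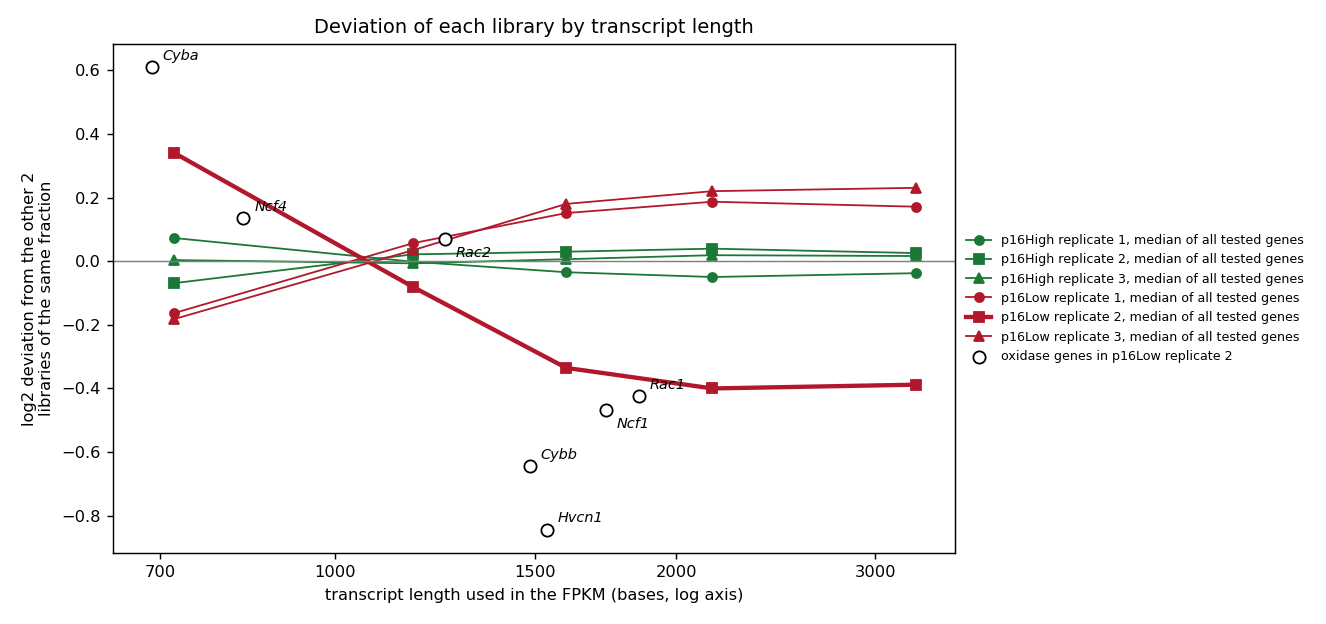
Median log2 deviation of each library from the other 2 libraries of its fraction (y axis) in 5 bins of the tested genes by transcript length (x axis, log scale), and the 7 oxidase genes in p16Low replicate 2 (open circles). The line of p16Low replicate 2 runs from 0.34 in the shortest bin to -0.39 in the longest, with Cyba at 0.61 and Hvcn1 at -0.84.

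Some genes had profiles close to those of the oxidase genes. Likeness was measured as the root mean square difference of log2(FPKM + 1) over the 6 libraries, each gene centred on its mean, so a small value means a similar pattern. Rac2 and Ncf4 were the closest 2 members, at 0.0357, and for both Hvcn1 was the farthest member. For Cybb, Ncf1, Rac1 and Hvcn1 the farthest member was Cyba. Cybb was nearest to Rac1 among the members, at 0.0821, which ranked 397 among the other 10894 tested genes. Cyba lay far from the rest, its nearest member being Ncf4 at 0.214 and its farthest Hvcn1 at 0.590. Over all tested genes the nearest to Cybb was Angel2, to Cyba Mrpl20, to Ncf1 Fbxo46, to Ncf4 Fam32a, to Rac1 Eif1a, to Rac2 Mpnd and to Hvcn1 Arap1, all within 0.0272.

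Other NADPH oxidases had few reads or none. Nox3, Nox4, Noxa1, Duox2, Duoxa1 and Duoxa2 had 0 reads in all 6 libraries. For 1 library, 0 reads bound the expected number at about 3 reads with 95% confidence, from counting error only. That is 0.144 to 0.182 CPM (reads per 1 M). Nox1 had 1 read in 1 library, and Duox1 had 2 reads in 1 library. Noxo1, the organizer of NOX1, had 0, 4 and 6 reads in p16High and 2, 1 and 0 in p16Low. The same list of 12 genes held Cybc1 and Rac3, a Rac mostly known from brain. Rac3 had 2.19, 2.12 and 2.29 FPKM in p16High against 1.57, 1.21 and 1.75 FPKM in p16Low (a log2 fold change of 0.36, SE 0.174, limma adjusted p = 0.731; log2 fold change 0.27 without p16Low replicate 2). Of the 3 tested genes of the list, Rac3 was the 1 at which the fractions did not overlap, beside 15.9% of all tested genes. Limma and limma-voom each called 0 of the 3, with 0 under 0.05 in limma before adjustment.

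Of 27 genes that switch the oxidase on or hold Rac off, limma and limma-voom each called 0 in either direction. In limma 0 were under 0.05 before adjustment, and 22 had a positive and 5 a negative log2 fold change. Their median log2 fold change was 0.16 with all libraries and -0.02 without p16Low replicate 2, which was the lowest library for 22 of the 27. The same library was the lowest for 46.5% of all tested genes. Rap1b, a small GTPase of the Ras family, was the most abundant at 1295 ± 23.7 FPKM in p16High cells, against 1351 ± 218 in p16Low cells. Arhgdib, the GDP-dissociation inhibitor of blood cells that keeps Rac in the cytosol, averaged 982 ± 21.9 FPKM in p16High cells, against 1069 ± 120 in p16Low cells. Cdc42, a small GTPase that binds the same inhibitors, averaged 817 ± 13.4 FPKM in p16High cells, against 741 ± 117 in p16Low cells. The 2 smallest unadjusted p-values were those of Pik3r5, an adaptor of PI 3-kinase gamma (31.8, 44.9 and 36.1 FPKM in p16High against 33.9, 14.8 and 32.5 FPKM in p16Low; log2 fold change 0.53, limma adjusted p = 0.747, or a log2 fold change of 0.16 without p16Low replicate 2), and Prkcb, a protein kinase C that phosphorylates p47phox (log2 fold change 0.27, limma adjusted p = 0.749, or a log2 fold change of 0.11 without that library).

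Of 8 transcription factors known to act on phox genes, limma and limma-voom each called 0. In limma 0 were under 0.05 before adjustment, and 5 had a positive and 3 a negative log2 fold change. Spi1, which encodes PU.1, had 339.4, 344.1 and 305.7 FPKM in p16High against 295.4, 348.8 and 322.9 FPKM in p16Low, and the p16High values lay inside the p16Low range (log2 fold change 0.03, limma adjusted p = 0.941). Cebpb averaged 529 ± 24.8 FPKM in p16High cells, against 544 ± 67.2 in p16Low cells. Irf1, a factor of interferon responses, and Rela, the p65 subunit of NF-kB, had log2 fold changes of 0.21 and 0.30 with all libraries and of -0.02 and 0.06 without p16Low replicate 2.

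The 8 genes listed for the supply of cytosolic NADPH, the electron donor of the oxidase, gave 0 calls with limma and 0 with limma-voom. In limma they gave 0 under 0.05 before adjustment, and 5 positive and 3 negative log2 fold changes. Idh1, the NADP-dependent isocitrate dehydrogenase of the cytosol, had 1047, 1101 and 1141 FPKM in p16High against 1072, 582.5 and 1007 FPKM in p16Low. Replicate 2 of p16Low was far below the other 5, which lay close together. The log2 fold change of Idh1 was 0.35 with all 6 libraries and 0.08 without p16Low replicate 2. Taldo1, a transaldolase of the pentose phosphate pathway, averaged 694 ± 18.2 FPKM in p16High cells, against 720 ± 101 in p16Low cells. For Nadk, which phosphorylates NAD, the values were 201, 213 and 221 FPKM in p16High against 204, 117 and 209 FPKM in p16Low. The malic enzyme gene Me1 averaged 36.6 ± 2.53 FPKM in p16High cells, against 28.1 ± 8.33 in p16Low cells. None of these differences passed.

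Among 12 genes for the fate of the oxidants, 9 were tested. Limma and limma-voom each called 0 of the 9, with 0 under 0.05 in limma before adjustment. Mpo, the myeloperoxidase of neutrophil granules, and Nos2, the inducible nitric oxide synthase, had 0 reads in all 6 libraries. The glutathione peroxidase gene Gpx1, which removes hydrogen peroxide, was abundant, at 7492, 7019 and 6763 FPKM in p16High against 5978, 9415 and 6564 FPKM in p16Low. The peroxiredoxin genes Prdx1 and Prdx5 stood at 817 ± 46.7 and 728 ± 46.3 FPKM in p16High, against 853 ± 70.8 and 766 ± 192 FPKM in p16Low. Of the 9, 8 were highest in p16Low replicate 2, against 24.4% of all tested genes, and 8 had a negative log2 fold change. The median was -0.07, and 0.04 without that library. The 1 with a positive value was Cat, the catalase, at 124 ± 7.64 FPKM in p16High cells, against 104 ± 30.2 in p16Low cells.

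LC3-associated phagocytosis, a process in which superoxide from NOX2 leads to LC3 on the phagosome, was covered by 9 genes. Limma and limma-voom each called 0 of the 9, with 0 under 0.05 in limma before adjustment. Map1lc3b, an LC3 gene, had 122.6, 118.4 and 116.7 FPKM in p16High against 113.4, 109.8 and 104.3 FPKM in p16Low. The fractions did not overlap there, and the log2 fold change was 0.13 (SE 0.115, limma adjusted p = 0.780). They did not overlap at 2 of the 9 genes, beside 15.9% of all tested genes. Elsewhere it was 1 of the 27 activation genes, 0 of the 8 transcription factors, 0 of the 8 NADPH supply genes and 1 of the 9 oxidant genes. Map1lc3a averaged 67.0 ± 3.01 FPKM in p16High cells, against 65.3 ± 10.6 in p16Low cells. Atg7, the enzyme that activates LC3 for lipid attachment, had a log2 fold change of 0.40 (limma adjusted p = 0.747), or 0.12 without p16Low replicate 2, and Uvrag had one of 0.28, or 0.00 without it. The median of the 9 was 0.15 with all libraries and 0.03 without p16Low replicate 2.

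**Figure D4:**
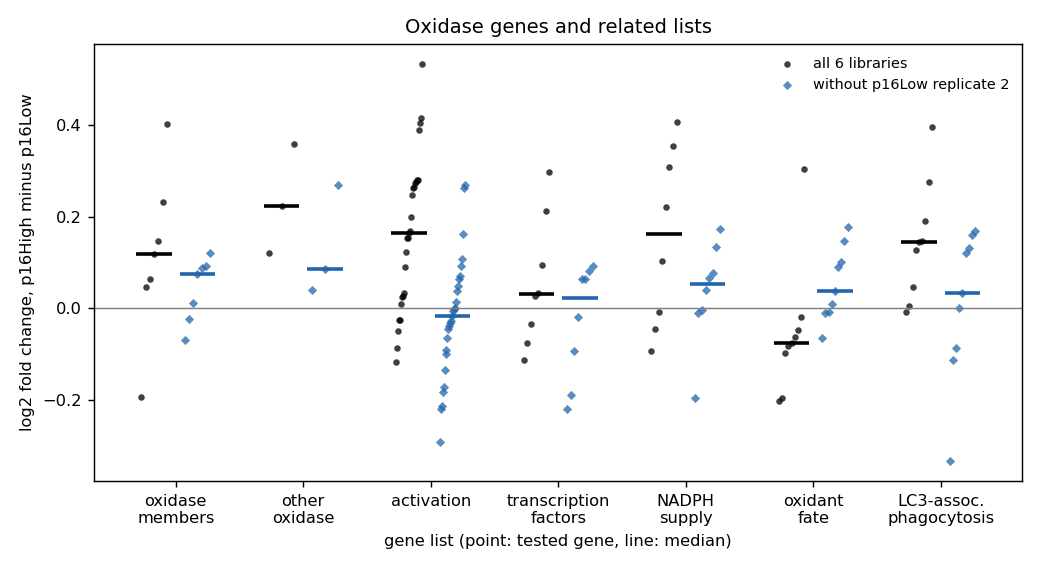
Log2 fold change, p16High minus p16Low (y axis), of the tested genes of the oxidase and of 6 related lists, with all 6 libraries (black circles) and without p16Low replicate 2 (blue diamonds); lines are medians. No gene shown was called in either fit, and the medians lie between -0.07 and 0.22 with all libraries and between -0.02 and 0.09 without that one.

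Other cells in the sort could carry oxidase transcripts, so their markers were read beside these values. Neutrophils, which carry the oxidase in quantity, had 5 of 11 markers listed at 0 in every library (S100a9, Ly6g, Ltf, Ngp and Cxcr2). The summed FPKM of the 11 ran from 90.8 to 94.2 in p16High and from 76.8 to 97.7 in p16Low, most of it from Csf3r and S100a8. S100a8 had 215 to 512 reads per library, and why S100a9 was listed at 0 beside it was not tested. B cells, which also express Cybb, Rac2 and Hvcn1, had all 10 markers above 0 in at least 1 library, with sums of 107 to 176 FPKM in p16High and 199 to 220.0 FPKM in p16Low. Of the 8 B-cell genes tested, limma called 0, with 7 under 0.05 before adjustment, and called 3 without p16Low replicate 2. The 6 markers of monocytes and small peritoneal macrophages summed to 26.9 to 33.2 FPKM in p16High and 55.5 to 71.9 FPKM in p16Low, and Fcrls was called lower in p16High (log2 fold change -1.28, limma adjusted p = 0.0362). Without p16Low replicate 2, Plac8 and Chil3 were called lower as well. Their log2 fold changes were then -1.06 (limma adjusted p = 0.0104) and -1.35 (limma adjusted p = 3e-05). Of the 4 tested genes of that list, 3 had a negative log2 fold change with all libraries. Irf4 had a positive one, 0.07, or 0.05 without p16Low replicate 2. Dendritic cell markers, mostly Cd209a, summed to 14.9 to 25.2 FPKM in p16High and 8.73 to 10.8 FPKM in p16Low. Cd209a, the 1 tested gene of the 7 listed, had a log2 fold change of 1.01 (limma adjusted p = 0.0729). It was called higher in p16High without p16Low replicate 2 (1.02, limma adjusted p = 0.00694). Ccr7 went the other way on 1 to 27 reads per library. It had 0.214, 0.0258 and 0.214 FPKM in p16High against 0.411, 0.242 and 0.677 FPKM in p16Low. Zbtb46 averaged 1.33 ± 0.594 FPKM in p16High, against 0.732 ± 0.0768 in p16Low, with overlap, and Siglech was at 0. The mast cell sum was 1.15 to 3.64 FPKM in p16High and 0 to 0.235 FPKM in p16Low, with Kit listed at 0. For eosinophils it was 0.185 to 0.904 FPKM in p16High and 0.550 to 0.752 FPKM in p16Low, with Epx and Prg2 at 0. T and NK cell markers summed to 0 to 0.242 FPKM in p16High and 0 to 0.401 FPKM in p16Low, with 5 of 9 at 0 (Cd4, Cd8a, Trac, Ncr1 and Klrb1c). Mesothelial markers reached 0.180 FPKM in p16High and 0 in p16Low, with Msln, Upk3b and Wt1 at 0. The part of these cells in the oxidase values was not tested.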

How the data were processed

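RNA of 6 libraries was sequenced, 3 of p16High and 3 of p16Low cells. The deposited values are FPKM per gene, scaled by the authors to transcript length and library size. Per the submitters' processing notes the tools were Bowtie2 2.2.3, TopHat2 2.0.12 and HTSeq 0.6.1, with neither their roles nor a genome build stated. GENCODE M21 (GRCm38) held 54494 of the table's gene IDs and lacked 38, and start and end matched for 98.3% of the shared ones. Multiplying FPKM by the mean annotated transcript length gave whole reads in all libraries (within 0.01 read) for 96.2% of the 22566 genes above 0, and a search over lengths gave them for 100%; library totals and reads come from this.

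The test was limma 3.58.1 (R 4.3.3) on log2(FPKM + 1), a scale that understates changes of low genes, with group as the only term, trended empirical Bayes and Benjamini-Hochberg adjustment at 0.05. It covered every gene that reached an FPKM of 1 in 3 libraries or more. Named genes were the 7 members; per related list, those called, the 3 most abundant and the 2 with the smallest p; and per list of other cells, those called and the 3 most abundant. Genes at 0, and marker genes called without p16Low replicate 2, were named after their values were seen, and some genes of the lists are not reported here. The members and lists were chosen with earlier results of these data known. Alternatives were another pseudocount, other filters, median-of-ratios scaling, limma-voom, a replicate block, each library left out and, chosen after seeing the data, removal of length trends and levels per listed gene length. The fit was checked on simulated data. Whether libraries of the same replicate number belong together is not known, and the main fit did not pair them.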

Additional observations from a re-analysis of the deposited data

How the results depend on the processing

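No oxidase gene and no gene of the 6 related lists was called in any of the 13 alternatives run. Over the 6 fits that leave out 1 library each, the log2 fold change ran from -0.068 to 0.26 for Cybb, -0.30 to 0.011 for Cyba, 0.075 to 0.37 for Ncf1, 0.0032 to 0.095 for Ncf4, -0.024 to 0.19 for Rac1, 0.041 to 0.089 for Rac2 and 0.12 to 0.61 for Hvcn1. The signs of Cybb, Cyba and Rac1 turned without p16Low replicate 2, and no other alternative turned a sign of the 7. The adjusted p of the 7 lay between 0.461 and 0.999 over these alternatives.

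With 1 library left out, the log2 differences of the ratios ran from -0.15 to 0.11 (Rac2 to Rac1), -0.079 to 0.56 (Cybb to Cyba) and -0.018 to 0.35 (Ncf1 to Ncf4). All 3 turned sign without p16Low replicate 2 (exact permutation p = 0.3, 0.9 and 1.0), and that of Rac2 to Rac1 also did without p16High replicate 3 (0.0045).

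The count over all tested genes was 97, against 9 with no filter, 156 with length trends removed, 301 without p16Low replicate 2, and between 17 and 32 without any 1 of the other 5 libraries. The cause was not tested. With the replicate number as a replicate block the count was 67 and that of the 7 genes was 0. The deviations of same-numbered libraries had correlations of -0.19, -0.17 and 0.01, and those of other numbers ran from -0.20 to 0.24. With 3 libraries per fraction these values cannot decide whether the libraries were paired.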

Other observations

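FPKM in this table rests on the mean length of a gene's annotated transcripts, which is shorter than the gene length the table also lists, 1485 against 5808 bases for Cybb and 688 against 1039 bases for Cyba. Per kilobase of the listed length, Cybb stood at 403 ± 15.5 in p16High and 371 ± 87.8 in p16Low, and Cyba at 1657 ± 137 in p16High and 1930 ± 499.5 in p16Low (fragments per kilobase and 1 M reads, SD, n = 3 each). The order of the 7 genes was the same on both scales.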
